A study of Mus musculus with 12 samples.

Results

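The 10 genes described here are Bmpr1a, Bmpr1b, Bmpr2, Smad1, Smad5, Smad9, Smad6, Smad7, Bambi and Atoh8, which were found by symbol among the 17365 genes of the count table. They encode BMP receptors, Smads, inhibitors of the pathway and 1 transcription factor, and all 10 passed the filter on low counts. RNA-seq had been made from adult mouse NSC cultures of the SVZ in 3 conditions: EGF/FGF, in which NSCs proliferate, BMP, which gives d-qNSCs, and BMP/FGF, which gives p-qNSCs. Each condition held 4 libraries, 2 of the ANS4 line (MF1 strain) and 2 of the BL6 line (C57BL/6 strain), from mice of 6 to 8 weeks, with every factor at 10 ng/ml for 3 days and cells below passage 10. EGF/FGF cultures received EGF and FGF2, BMP cultures received BMP4 alone, and BMP/FGF cultures received BMP4 and FGF2. A line stands for its strain by 1 derivation, so line and strain cannot be told apart. The replicates were described as biological, but p-values below measure only the spread between these libraries.

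BMP ligands bind type I receptors (BMPR1A, BMPR1B) and the type II receptor BMPR2, and the type II receptor phosphorylates the type I receptor. The active type I receptor phosphorylates SMAD1, SMAD5 and SMAD9, which join SMAD4 and enter the nucleus. Among the genes they switch on are Smad6 and Smad7, whose products block the pathway at the receptor. BAMBI, a receptor-like protein with no kinase domain, also blocks it, and Atoh8 encodes a basic helix-loop-helix factor that responds to BMP in several cell types. BMP4 is used to bring cultured NSCs into quiescence.

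Promoter sequence is shown for Atoh8, Smad9 and Smad6, for these had the largest rises in BMP among the genes with a window (values below). The RefSeq tables (GRCm38.p6) held windows of 8 of the 10 genes. Each sequence below is the 250 bases before the start site, 5′ to 3′ on the strand of the gene. Capitals mark matches on either strand to GGCGCC or GGAGCC, which are GC-rich letters searched as forms of the Smad1/5 site. They were searched together with CAGACA, a word of the Smad3/4 site. Atoh8 lies at chr6:72235578-72235827, minus strand, Smad9 at chr3:54755332-54755581, plus strand, and Smad6 at chr9:64022060-64022309, minus strand.
Atoh8: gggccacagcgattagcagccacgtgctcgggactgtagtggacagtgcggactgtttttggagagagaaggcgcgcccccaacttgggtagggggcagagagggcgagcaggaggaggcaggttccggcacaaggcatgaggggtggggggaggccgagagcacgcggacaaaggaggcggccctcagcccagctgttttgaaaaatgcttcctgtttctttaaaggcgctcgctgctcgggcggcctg
Smad9: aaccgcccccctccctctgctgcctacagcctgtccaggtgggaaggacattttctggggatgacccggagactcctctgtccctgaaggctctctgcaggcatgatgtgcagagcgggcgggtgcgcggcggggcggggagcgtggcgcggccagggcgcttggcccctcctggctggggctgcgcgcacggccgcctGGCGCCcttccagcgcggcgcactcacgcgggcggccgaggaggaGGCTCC
Smad6: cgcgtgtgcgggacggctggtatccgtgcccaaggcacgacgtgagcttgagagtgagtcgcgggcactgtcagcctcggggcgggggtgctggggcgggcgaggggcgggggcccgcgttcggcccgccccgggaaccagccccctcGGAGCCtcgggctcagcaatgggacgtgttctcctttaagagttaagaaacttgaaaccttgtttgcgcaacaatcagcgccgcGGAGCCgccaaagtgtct
The Atoh8 stretch had 0 matches to the 3 words. Smad9 had GGCGCC starting 51 bases before the start site and GGAGCC on the opposite strand, printed as GGCTCC, starting 6 bases before it. Smad6 had GGAGCC at 102 and at 18 bases before the start site. Over windows of 300 bases, reaching past the start site, GGCGCC was found in 4 of the 8 genes and in 13.4% of all 27025 genes. GGAGCC was found in 4 and in 33.5%, and CAGACA in 1 and in 23.6%. A longer word that begins with the first of the 3 words was also searched. It was found in 0 of the 8 genes and in 0.08% of all 27025 genes. GC content of the windows of the 8 genes ran from 48.3% (a Bmpr1b window) to 79.3% (Bmpr1a). The shares were not matched for GC content, so they cannot show an excess of the site. Some genes have more than 1 window, which gives them more chances of a match, and the letters were not tested as binding sites.

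Library totals lay between 18069052 and 19451818 estimated counts, and 3 counts equalled 0.155 to 0.168 CPM. CPM are counts scaled to library size after TMM adjustment (factors 0.972 to 1.03). The 8 neural stem cell markers were all present and summed to 7273 to 7885, 9165 to 10419 and 11076 to 11660 CPM in EGF/FGF, BMP and BMP/FGF. Within that list Nes (means 569, 126 and 115 CPM) and Fabp7 (2409, 475 and 1385 CPM) were lower in both quiescent conditions. The 4 proliferation markers summed to 1752 to 2172, 260 to 434 and 178 to 193 CPM in the same order. The 6 neuroblast and neuron markers summed to 556 to 589 CPM in EGF/FGF, 868 to 933 in BMP/FGF, 1125 to 1209 in ANS4 BMP and 1569 to 1741 in BL6 BMP. By condition this is the order of Smad6, Smad7, Smad9 and Atoh8, though within BMP the Smad6 mean was not higher in BL6, and the part of these markers was not tested. Of that list, Dcx had means of 1.29, 280 and 49.9 CPM in EGF/FGF, BMP and BMP/FGF, Tubb3 of 11.8, 165 and 45.5 CPM and Map2 of 554, 958 and 808 CPM, while Rbfox3 had at most 4 counts and Stmn2 at most 12 counts in any library. Oligodendrocyte markers (6 of 6 in the table) summed to 192 to 231, 635 to 673 and 706 to 729 CPM in EGF/FGF, BMP and BMP/FGF, of which Mog reached at most 5 counts. Ependymal markers (3 of 4) summed to 62.9 to 78.0, 191 to 232 and 196 to 210 CPM, with Foxj1 at means of 59.6, 194 and 181 CPM, Rsph1 at 9.92, 21.4 and 22.4 CPM, and Ccdc153 at 9 counts or fewer. Endothelial markers (4 of 6) summed to 39.1 to 47.1, 5.58 to 9.29 and 15.0 to 19.0 CPM. Flt1 had means of 39.7, 4.81 and 14.9 CPM and Kdr of 1.71, 3.16 and 1.69 CPM, while Pecam1 had at most 8 counts. Microglial markers (5 of 7) summed to 9.56 to 14.7, 5.31 to 6.18 and 7.15 to 9.37 CPM in the same order, with Csf1r at most 2 counts. Of these, Itgam had means of 9.89, 3.37 and 5.43 CPM and P2ry12 of 1.37, 2.15 and 2.41 CPM. Mural and fibroblast markers (6 of 6) summed to 5.83 to 6.78, 5.96 to 7.41 and 9.59 to 13.6 CPM, with Lum at most 2 counts. Rgs5 and Acta2 were highest in BMP/FGF (3.62 and 5.99 CPM), Pdgfrb in BMP (1.70 CPM), and Col1a1 and Col3a1 in EGF/FGF (2.02 and 1.09 CPM). The part of these cell types was not tested either. In bulk RNA, fewer cells of a type and less RNA per cell cannot be told apart.

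Bmpr1a (chromosome 14, 34410734 to 34503341, GRCm38) encodes the type I receptor with the highest level per length here. ANS4 libraries held 292 and 277 CPM in EGF/FGF, 588 and 554 in BMP, and 438 and 451 in BMP/FGF. BL6 libraries held 257 and 260, 467 and 423, and 469 and 454. Every quiescent library lay above every EGF/FGF library, whereas BMP and BMP/FGF overlapped in the BL6 line. The means were 272 ± 16.3, 508 ± 76.1 and 453 ± 12.6 CPM (SD, n = 4).

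Bmpr1b (chromosome 3, 141837136 to 142169425) encodes the other type I receptor. ANS4 held 67.3 and 63.4 CPM in EGF/FGF, 183 and 166 in BMP, and 156 and 159 in BMP/FGF. BL6 held 52.0 and 53.8, 154 and 136, and 174 and 167. It had the largest fold change of the receptors, with both quiescent conditions well apart from EGF/FGF and overlapping each other. Its means were 59.1 ± 7.40, 159.8 ± 19.9 and 164 ± 8.20 CPM (SD, n = 4).

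Bmpr2 (chromosome 1, 59763400 to 59879014) encodes the type II receptor. ANS4 held 284 and 254 CPM in EGF/FGF, 389 and 367 in BMP, and 257 and 280.2 in BMP/FGF. BL6 held 255 and 273, 386 and 342, and 374 and 350.3. In BMP/FGF the ANS4 libraries lay within the EGF/FGF range and the BL6 libraries within the BMP range. The means were 267 ± 14.8, 371 ± 21.6 and 315 ± 55.7 CPM (SD, n = 4), the last being the widest relative spread among the receptors.

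Smad1 (chromosome 8, 79338395 to 79399518) encodes a receptor-activated Smad. ANS4 held 68.6 and 65.2 CPM in EGF/FGF, 89.9 and 90.1 in BMP, and 92.2 and 94.8 in BMP/FGF, and BL6 held 58.1 and 55.9, 87.7 and 102, and 91.3 and 86.2. All 8 quiescent libraries were above all 4 EGF/FGF libraries, and BMP and BMP/FGF overlapped. Smad5 (chromosome 13, 56703010 to 56742377), its close relative, went the other way. ANS4 held 252 and 256 CPM in EGF/FGF, 202 and 201 in BMP, and 171.5 and 172 in BMP/FGF. BL6 held 281 and 274, 196 and 185, and 180.0 and 185. For Smad5 each quiescent library lay below each EGF/FGF library. The means were 61.9 ± 5.94, 92.5 ± 6.63 and 91.1 ± 3.63 CPM for Smad1 and 266 ± 14.2, 196 ± 7.67 and 177 ± 6.60 CPM for Smad5 (SD, n = 4).

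Smad9 (chromosome 3, 54755582 to 54801257), the rarest of the receptor-activated Smads, had 7 to 18 counts in EGF/FGF. ANS4 held 0.362 and 0.672 CPM in EGF/FGF, 5.96 and 6.75 in BMP, and 4.09 and 3.61 in BMP/FGF. BL6 held 0.936 and 0.620, 7.31 and 5.63, and 4.36 and 4.13. The 3 conditions did not overlap, with BMP highest, BMP/FGF between and EGF/FGF lowest. SMAD1, SMAD5 and SMAD9 are similar in sequence, so estimated counts could share reads between them.

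**Figure D1:**
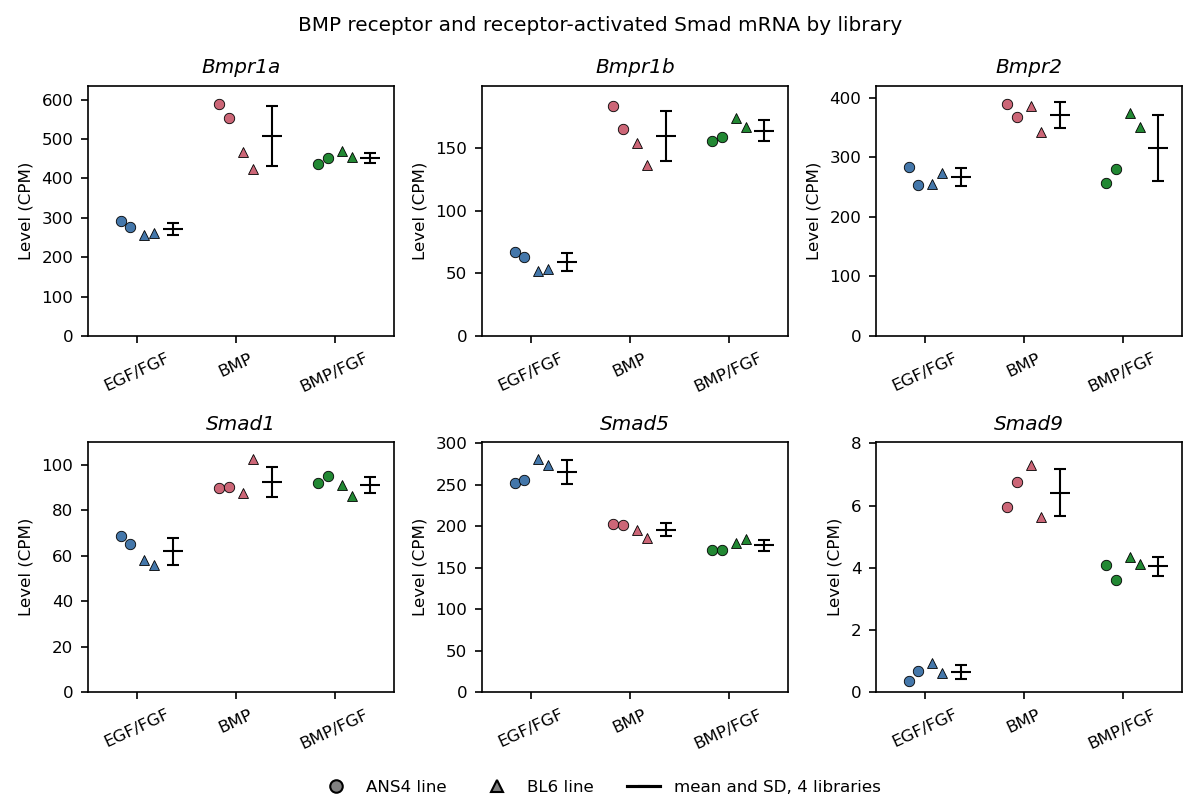
Level in CPM (y axis, from 0, a scale of its own in each panel) of 6 genes in EGF/FGF, BMP and BMP/FGF (x axis), with 1 point per library, circles for ANS4, triangles for BL6, and mean and SD of 4 libraries beside them. Smad5 is the panel that falls from EGF/FGF (mean 266 CPM) to BMP (196), and Bmpr2 in BMP/FGF splits by line.

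Smad6 (chromosome 9, 63953076 to 64022059) encodes an inhibitory Smad that acts mainly on the BMP branch. ANS4 held 0.569 and 0.465 CPM in EGF/FGF, 3.53 and 2.16 in BMP, and 0.754 and 0.808 in BMP/FGF. BL6 held 0.728 and 0.465, 1.71 and 2.35, and 1.12 and 1.01. BMP stood above both other conditions in all 4 libraries, while BMP/FGF exceeded EGF/FGF by little. Means were 0.557 ± 0.124, 2.44 ± 0.778 and 0.921 ± 0.169 CPM (SD, n = 4). The libraries of the 3 conditions had 9 to 14, 33 to 64 and 14 to 20 counts of it.

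Smad7 (chromosome 18, 75367529 to 75395935), the inhibitory Smad that also acts on TGF-beta signalling, held 1.55 and 1.60 CPM in ANS4 EGF/FGF, 4.36 and 3.98 in BMP, and 2.21 and 1.99 in BMP/FGF. BL6 held 1.14 and 1.24 (22 and 24 counts), 3.83 and 5.00, and 2.51 and 2.29. The 3 conditions did not overlap, in the order BMP, BMP/FGF, EGF/FGF.

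Bambi (chromosome 18, 3507923 to 3516404) ran opposite to the inhibitory Smads when BMP was compared with EGF/FGF. ANS4 held 7.81 and 7.54 CPM in EGF/FGF, 5.35 and 4.76 in BMP, and 3.55 and 2.59 in BMP/FGF, and BL6 held 6.24 and 7.75, 4.51 and 3.49, and 3.63 and 3.57. EGF/FGF was highest in every library, and BL6 BMP replicate 2 lay within the BMP/FGF range.

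Atoh8 (chromosome 6, 72206177 to 72235577) had the largest fold changes of the 10 genes against EGF/FGF, where its libraries held 14 to 21 counts. ANS4 held 0.931 and 1.08 CPM in EGF/FGF, 24.4 and 25.4 in BMP, and 21.7 and 19.6 in BMP/FGF. BL6 held 0.728 and 0.981, 25.5 and 37.5, and 19.997 and 18.9. The 3 conditions did not overlap, and BL6 BMP replicate 2 stood above the other BMP libraries.

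**Figure D2:**
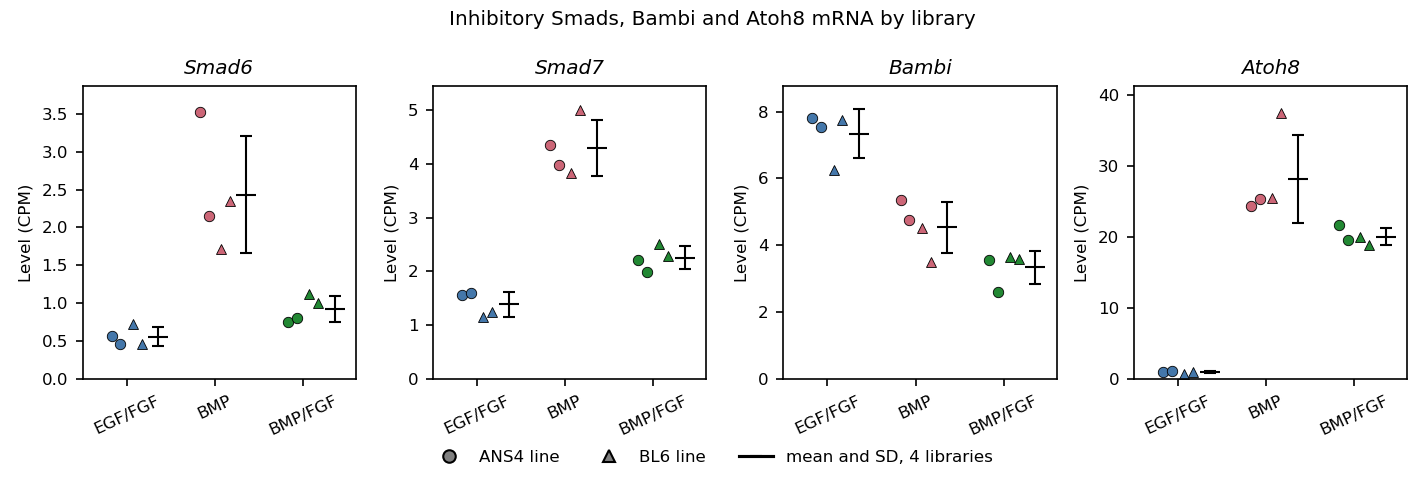
Level in CPM (y axis, from 0, a scale of its own in each panel) of Smad6, Smad7, Bambi and Atoh8 in the 3 conditions (x axis), with 1 point per library, circles for ANS4, triangles for BL6, and mean and SD of 4 libraries. Smad6, Smad7 and Atoh8 are highest in BMP (means 2.44, 4.30 and 28.2 CPM), whereas Bambi is highest in EGF/FGF (7.34 CPM).

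To compare levels between genes, mean CPM were divided by the length of the longest coding transcript (GENCODE vM21). In EGF/FGF, Bmpr1a stood at 45.6 and Smad5 at 40.4 CPM per kb, followed by Bmpr2 (20.7), Smad1 (16.4) and Bmpr1b (11.1). Bambi, at 1.45, was the highest of the genes outside the receptors and receptor-activated Smads. Atoh8 (0.396), Smad7 (0.324), Smad6 (0.187) and Smad9 (0.121) closed the order, and over libraries the ranges of Atoh8 and Smad7 overlapped, as did those of Smad6 and Smad9. In BMP, Bmpr1a stood at 85.3 CPM per kb, and Bmpr1b (29.9), Smad5 (29.8) and Bmpr2 (28.8) overlapped over their libraries. Smad1 (24.5) overlapped Bmpr2 and Bmpr1b but not Smad5. Atoh8 stood at 11.98 CPM per kb, with Smad9 at 1.19, Smad7 at 1.00, Bambi at 0.892 and Smad6 at 0.820, where each overlapped the next. In BMP/FGF the corresponding levels were 76.0 for Bmpr1a, 30.6 for Bmpr1b, 8.52 for Atoh8, 0.754 for Smad9, 0.658 for Bambi, 0.526 for Smad7 and 0.310 for Smad6. With the median transcript length in place of the longest, Bmpr1a stayed first in each condition, but other places changed. Bmpr1b then passed Smad1 in EGF/FGF, Smad1 passed Bmpr2 in BMP/FGF, and in BMP the last 4 ran Smad7, Smad6, Smad9 and Bambi.

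The first comparison asked how d-qNSCs in BMP differ from proliferating NSCs. Both type I receptors, Bmpr2, Smad1, Smad9, Smad6, Smad7 and Atoh8 rose, and Smad5 and Bambi fell. All 10 genes passed FDR under 0.05 (edgeR quasi-likelihood F-test on all 12 libraries with condition and line as terms, two-sided, Benjamini-Hochberg over 13312 genes). This is 8 higher and 2 lower, where 40.8% of all tested genes were higher and 38.8% lower, so passing the test was common. At a log2 fold change above 1.5 there were 4 (Atoh8, Smad9, Smad6 and Smad7), against 10.9% of all tested genes. The median log2 fold change of the 10 was 1.17, beside 0.02 over all tested genes.

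Atoh8 rose 30.0-fold (log2 4.91, SE 0.18, edgeR FDR = 3.41e-14) and Smad9 9.83-fold (log2 3.30, SE 0.20, edgeR FDR = 3.59e-11). The inhibitory Smads followed, with Smad6 at 4.32-fold (log2 2.11, SE 0.27, edgeR FDR = 1.41e-06) and Smad7 at 3.09-fold (log2 1.63, SE 0.17, edgeR FDR = 9.58e-08). Among the receptors Bmpr1b rose 2.70-fold, Bmpr1a 1.86-fold and Bmpr2 1.39-fold (edgeR FDR = 2.16e-11, 3.73e-09 and 0.000105). Smad1 rose by 0.58 (edgeR FDR = 4.96e-07) while Smad5 fell by 0.44 on the log2 scale (SE 0.06, edgeR FDR = 1.38e-06). Bambi fell by 0.70 on the log2 scale (SE 0.14, edgeR FDR = 0.000228).

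The second comparison set p-qNSCs in BMP/FGF against EGF/FGF, which shares the EGF/FGF libraries with the first. The directions of the 10 genes were the same, with 8 higher and 2 lower. Over all tested genes 40.9% were higher and 38% lower. Past the log2 fold change of 1.5 there were 2 (Atoh8 and Smad9), against 10.6% of all tested genes. The median of the 10 was 0.71, beside 0.02 over all tested genes. Atoh8 was 21.4-fold higher (log2 4.42, SE 0.18, edgeR FDR = 1.84e-13) and Smad9 6.21-fold (log2 2.63, SE 0.21, edgeR FDR = 1.93e-09). Bmpr1b was 2.79-fold, Bmpr1a 1.67-fold and Smad1 1.47-fold higher (edgeR FDR = 1.52e-11, 5.30e-08 and 9.04e-07). Smad7 was 1.62-fold higher (edgeR FDR = 0.00253). Smad6 was 1.65-fold higher with edgeR FDR = 0.0497, a call lost in 16 of its 23 alternatives. Bmpr2 was 1.18-fold higher (edgeR FDR = 0.0260), and in ANS4 alone its log2 change was −0.0053 (edgeR FDR = 0.945). This Bmpr2 call was also lost with limma-trend (FDR = 0.0564) and without ANS4 EGF/FGF replicate 2 or any 1 of the 4 BL6 libraries of the 2 conditions (edgeR FDR 0.0533 to 0.158). Smad5 fell by 0.58 (edgeR FDR = 3.39e-08) and Bambi fell by 1.13 on the log2 scale (SE 0.15, edgeR FDR = 1.74e-06).

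The third comparison asked what FGF2 changes when it is added to BMP4, and it shares its libraries with the other two. Smad6, Smad7, Smad9, Atoh8, Bambi, Bmpr2 and Smad5 were lower in BMP/FGF than in BMP. This is 7 lower where 21.3% of all tested genes were lower, and 0 higher where 20.1% were higher. At an unadjusted p under 0.05 the members higher were also 0, as with DESeq2's Wald test and limma-trend. The median log2 fold change of the 10 was −0.34, beside −0.00 over all tested genes. Smad6 had the largest difference, 2.62-fold lower in BMP/FGF (log2 −1.39, SE 0.25, edgeR FDR = 0.000315), and Smad7 was 1.91-fold lower (log2 −0.93, SE 0.16, edgeR FDR = 0.000196). Smad9 was 1.58-fold lower (log2 −0.66, SE 0.15, edgeR FDR = 0.00173) and Atoh8 1.40-fold lower (log2 −0.49, SE 0.12, edgeR FDR = 0.00293). Without BL6 BMP replicate 2, which was high in Atoh8, that gene's log2 change was −0.32 (edgeR FDR = 0.00605). Bambi fell by 0.44 (edgeR FDR = 0.0349), Bmpr2 fell by 0.24 (edgeR FDR = 0.0384) and Smad5 fell by 0.15 on the log2 scale (edgeR FDR = 0.0461).

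The type I receptors and Smad1 did not pass the test between the quiescent conditions. The log2 change of Bmpr1a was −0.16 (95% interval −0.31 to 0.00, edgeR FDR = 0.103), that of Bmpr1b 0.05 (−0.12 to 0.21, edgeR FDR = 0.677) and that of Smad1 −0.02 (−0.17 to 0.12, edgeR FDR = 0.811). Smad6, Smad7, Smad9 and Atoh8 were lower in ANS4 alone and in BL6 alone, whereas Bambi, Bmpr2 and Smad5 passed in ANS4 alone (log2 −0.72, −0.49 and −0.23) and not in BL6 alone (−0.15, −0.01 and −0.06). Bmpr1a also passed in ANS4 alone (log2 −0.36, edgeR FDR = 0.000152). The test of the difference between the lines, given below, called Bmpr2 and Bmpr1a but not Bambi or Smad5 (edgeR FDR = 0.199 and 0.185). For Smad5 in BL6 the deposited log2 values differed from the counts in the size of this change. They were 11.48 and 11.54 in BMP/FGF and 11.85 and 11.85 in BMP, whereas the counts gave the −0.06 above. The cause was not tested, so the Smad5 result in BL6 depends on the values used. Without ANS4 BMP replicate 1, ANS4 BMP replicate 2, ANS4 BMP/FGF replicate 1, ANS4 BMP/FGF replicate 2 or BL6 BMP replicate 1 the count of lower genes was 4 each time.

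**Figure D3:**
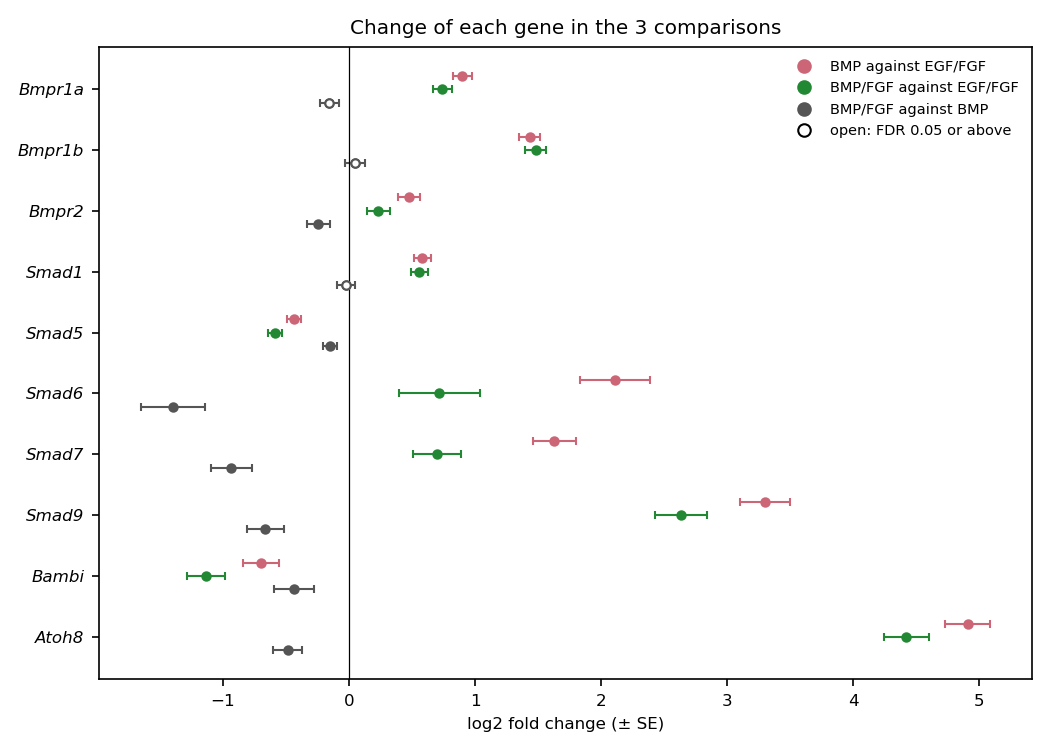
Log2 fold change with SE (x axis) of the 10 genes (y axis) in the 3 comparisons from the edgeR fit on 12 libraries, with open points at FDR of 0.05 or above. Smad6, Smad7, Smad9 and Atoh8 lie right of 0 in both comparisons with EGF/FGF and left of 0 in BMP/FGF against BMP, where the open points are Bmpr1a, Bmpr1b and Smad1.

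The 2 lines were then compared by testing the difference of each change, BL6 minus ANS4, with 1 mean for each line and condition. In BMP against EGF/FGF, edgeR called 0 of the 10 genes, where 9.02% of all tested genes were called. At an unadjusted p under 0.05 there were 3 (Bmpr1a, Smad1 and Smad5), and DESeq2 and limma-trend called 0. Without BL6 BMP replicate 1 these 3 were called by edgeR. In BMP/FGF against EGF/FGF, 2 were called (Bmpr1b and Bmpr2), where 4.98% of all tested genes were called. Over 19 alternatives the Bmpr1b call was lost in 9 and the Bmpr2 call in 6, and both were lost without ANS4 EGF/FGF replicate 1, BL6 EGF/FGF replicate 1 or any 1 of the 4 BMP/FGF libraries. In BMP/FGF against BMP 3 were called (Bmpr1a, Bmpr1b and Bmpr2), where 13.5% were called. In EGF/FGF itself 1 of the 10 differed in level between the lines, Bmpr1b at log2 −0.31 in BL6 (edgeR FDR = 0.0246), where 6.75% of all tested genes differed.

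The 3 receptor genes thus carried the line differences called. In ANS4, adding FGF2 to BMP4 took Bmpr1a from a mean of 571 to 444 CPM (log2 −0.36), and in BL6 the means were 445 and 461 CPM (log2 0.05). The difference was 0.41 (SE 0.09, edgeR FDR = 0.00525). Bmpr2 went from 378 to 269 CPM in ANS4 (log2 −0.49) and from 364 to 362 in BL6 (log2 −0.01), a difference of 0.49 (SE 0.11, edgeR FDR = 0.00637). Bmpr1b went from 175 to 157 CPM in ANS4 (log2 −0.15) and from 145 to 170.4 in BL6 (log2 0.23), a difference of 0.38 (SE 0.10, edgeR FDR = 0.0183). This Bmpr1b call was lost in 4 of 19 alternatives, each with 1 library left out, whereas those of Bmpr1a and Bmpr2 were kept in all 19. For Smad6 the changes were −1.86 and −0.93, and their difference of 0.93 (SE 0.48) had an edgeR FDR of 0.219. Leaving out BL6 BMP replicate 1 gave 5 genes with a line difference in this comparison, Atoh8 (−0.68) and Smad1 (−0.26) being added. BL6 BMP also had more proliferation marker RNA (383 to 434 CPM, against 260 to 282 in ANS4 BMP) and more neuroblast marker RNA than ANS4 BMP, and the part of these in the line differences was not tested.

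**Figure D4:**
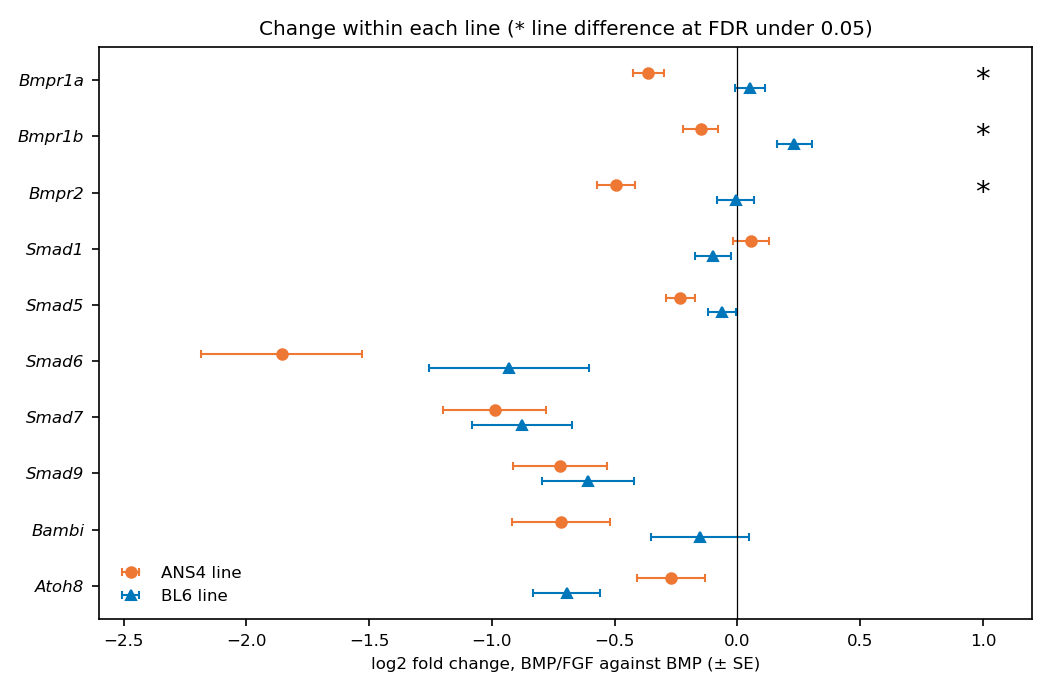
Log2 fold change with SE (x axis) of BMP/FGF against BMP for the 10 genes (y axis) within ANS4 (circles) and BL6 (triangles), from the fit with a mean for each line and condition, with a star where the line difference passed FDR under 0.05. The stars are Bmpr1a, Bmpr1b and Bmpr2, whose ANS4 points (−0.36, −0.15 and −0.49) lie left of their BL6 points.

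The surrounding pathway was read from 6 lists of 102 further genes, of which 97 were in the table and 67 were tested. In BMP against EGF/FGF 31 rose, 22 fell and 14 did not pass, where 40.8% of all tested genes rose and 38.8% fell. In BMP/FGF against EGF/FGF the counts were 33, 22 and 12 (40.9% and 38% of all tested genes), and in BMP/FGF against BMP 11, 22 and 34 (20.1% and 21.3%). The counts of single lists below are to be read beside these shares. Medians were 0.31, 0.18 and −0.08 on the log2 scale. In these comparisons 3, 2 and 1 of the 67 genes were at the floor of 3 counts per library in a condition. Setting them to their bound could not move the medians, because each gene stayed on its side of the median. Without a fitted test were 30 genes in the table, none above 32 counts in a library.

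Of the other Smads, Smad4, the partner shared by BMP and TGF-beta Smads, went from 92.8 CPM in EGF/FGF to 132 in BMP and 107 in BMP/FGF. It rose in BMP by 0.50 on the log2 scale (edgeR FDR = 5.46e-07) and stood between the other levels in BMP/FGF (log2 −0.30 against BMP, edgeR FDR = 0.000676). Smad3, of the TGF-beta branch, was lower in BMP (83.7 CPM) than in EGF/FGF (102) and BMP/FGF (102). Smad2, of the same branch, fell by 0.32 in BMP/FGF against EGF/FGF and had a log2 change of −0.12 in BMP (edgeR FDR = 0.0605).

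Among 10 other tested receptors and co-receptors, 5 rose and 4 fell in BMP, 5 rose and 5 fell in BMP/FGF, and 5 were lower and 0 higher in BMP/FGF against BMP. The type I receptor gene Acvr1 was at 24.5, 24.0 and 19.8 CPM in EGF/FGF, BMP and BMP/FGF, with no call in BMP (log2 −0.03, edgeR FDR = 0.688). It was lower in BMP/FGF than in EGF/FGF (log2 −0.31, edgeR FDR = 0.00107) and than in BMP (log2 −0.28, edgeR FDR = 0.00698). Each of these calls was kept in 22 of 23 alternatives. Rgma, a BMP co-receptor, rose from 128 CPM to 493 in BMP and 443 in BMP/FGF. The activin receptors Acvr1b (17.7, 42.8 and 39.8 CPM) and Acvr2b (10.4, 32.2 and 19.4 CPM) rose in both. Of the TGF-beta receptors, Tgfbr2 fell by 0.73 and Tgfbr3 fell by 0.96 on the log2 scale in BMP, and Tgfbr1 was lowest in BMP/FGF (66.9, 58.8 and 41.1 CPM).

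Of 11 tested ligands, 5 rose and 3 fell in BMP, 6 rose and 3 fell in BMP/FGF, and 2 were higher and 1 lower in BMP/FGF against BMP. Bmp4, whose protein was added to the medium, was not tested and reached at most 4 counts in EGF/FGF, 12 in BMP and 4 in BMP/FGF. Gdf1 rose from 26.6 to 67.6 and 68.4 CPM, and it shares its transcript with Cers1, so its counts are uncertain. Inha, the inhibin alpha chain, rose by 1.71 in BMP and 1.95 in BMP/FGF on the log2 scale. Bmp7 fell by 1.66 and 1.35, and in ANS4 alone its change in BMP/FGF was −0.31 (edgeR FDR = 0.467). Bmp1, a procollagen protease, fell by 0.38 in BMP (179, 138 and 182 CPM), and Tgfb2 had means of 237, 235 and 284 CPM. In ANS4 alone Tgfb2 did not pass in BMP/FGF against EGF/FGF (log2 0.0073, edgeR FDR = 0.920) or against BMP (0.07, edgeR FDR = 0.413), and in BL6 alone the values were 0.52 and 0.48.

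Of 12 tested extracellular antagonists, 8 rose and 1 fell in either quiescent condition, and 3 were higher and 4 lower in BMP/FGF against BMP. Nog, which encodes the BMP-binding protein Noggin, had at most 2 counts in EGF/FGF. ANS4 held 19 and 17 counts of Nog in BMP and 8 and 5 in BMP/FGF, and BL6 held 12 and 24, then 7 and 7. Against the floor of 3 counts per library it was at least 6.19-fold higher in BMP and at least 2.37-fold higher in BMP/FGF, and it was lower in BMP/FGF than in BMP (log2 −1.37, edgeR FDR = 0.00519), a call lost in BL6 alone (−1.24). Nbl1, another antagonist, followed the same order (84.4, 296 and 201 CPM). Fst (7.73, 9.46 and 16.4 CPM) and Bmper (23.3, 31.0 and 45.4 CPM) were highest in BMP/FGF, Dand5 rose by 1.04 and 1.27, and Crim1 was highest in BMP (32.5, 45.0 and 30.7 CPM). Fstl1 fell by 0.40 in BMP, and Chrdl1 fell by 0.24 in BMP/FGF against each of the other conditions, with −0.09 and no call against BMP in BL6 alone.

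Of 18 tested intracellular inhibitors and regulators, 6 rose and 8 fell in BMP, 6 rose and 7 fell in BMP/FGF, and 3 were higher and 5 lower in BMP/FGF against BMP. Ctdsp2, a phosphatase that acts on Smads, was at 214, 536 and 397 CPM, and the ubiquitin ligase gene Nedd4l at 42.1, 85.4 and 63.2 CPM, both in the order of the inhibitory Smads. Ski, a co-repressor, was at 117, 179 and 127 CPM, while its relative Skil fell by 1.27 and 0.98. Pmepa1, which is known as a TGF-beta target and Smad2/3 inhibitor, fell from 72.0 CPM to 14.2 and 12.4, and Fkbp1a, which binds type I receptors, fell by 1.02 and 1.04. Wwp1, another ubiquitin ligase, fell by 0.17 in BMP (edgeR FDR = 0.0304, a call lost in 5 of 23 alternatives) and was higher in BMP/FGF than in BMP (log2 0.33).

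Of 13 tested target genes, 6 rose and 5 fell in BMP, 7 rose and 5 fell in BMP/FGF, and 2 were higher and 5 lower in BMP/FGF against BMP. The Id genes encode helix-loop-helix proteins that bind and block other such factors. Id1 had means of 11.6, 28.7 and 23.1 CPM, Id2 had means of 46.7, 198 and 132 CPM, and Id4 of 2.07, 27.5 and 19.3 CPM. These 3 were lower in BMP/FGF than in BMP (log2 −0.31, −0.58 and −0.51, edgeR FDR = 0.0134, 1.26e-05 and 0.000513), the Id1 call being lost in BL6 alone and without ANS4 BMP replicate 2 or BL6 BMP/FGF replicate 1. Id3 went against them and fell by 0.59 in BMP and 0.53 in BMP/FGF (means 45.9, 30.6 and 31.7 CPM), with a log2 value of 0.06 between the quiescent conditions (edgeR FDR = 0.714). By quantitative PCR, the authors report a group of markers that included Id1 as typically higher in BMP/FGF than in BMP. After return to EGF/FGF, they report similar SMAD1 phosphorylation in cells from either condition. The RNA levels here do not measure that phosphorylation. Dlx5 had at most 1 count in EGF/FGF and means of 14.8 CPM in BMP and 1.40 in BMP/FGF. Hes1 fell by 1.40 and 1.27 and Runx2 fell by 1.36 and 1.23, and Hey1 was lowest in BMP (136, 99.9 and 135 CPM).

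**Figure D5:**
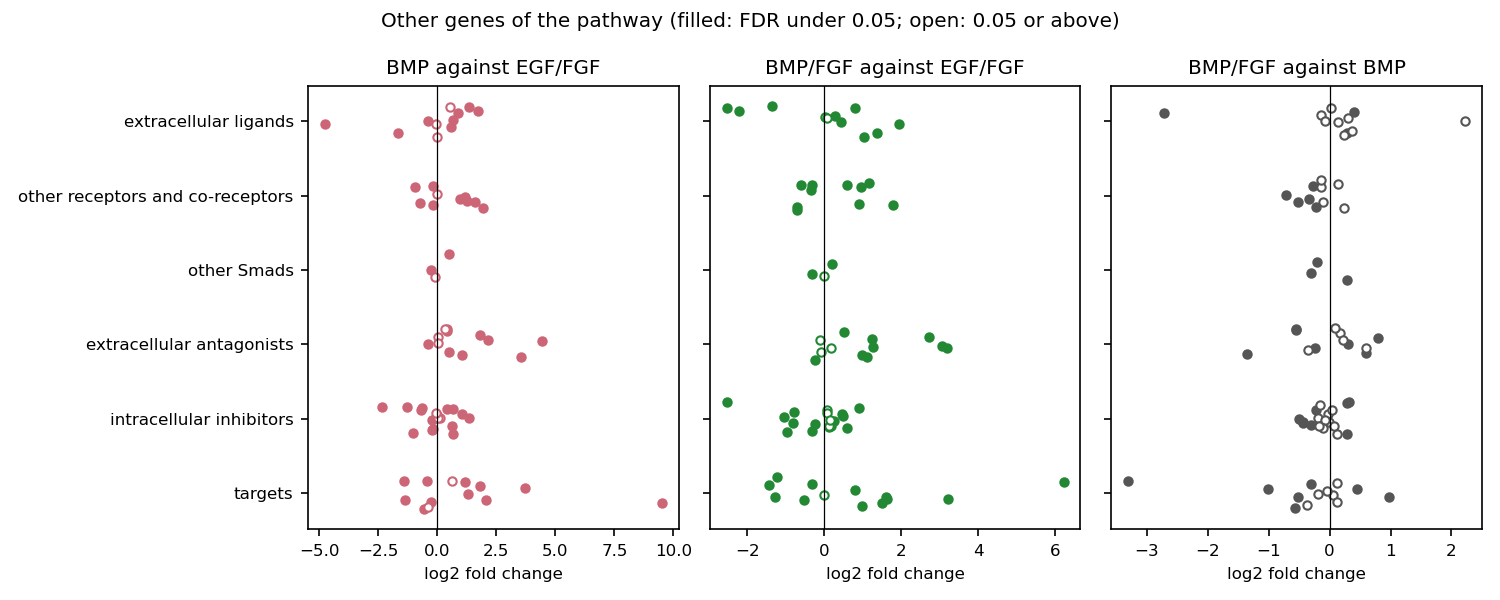
Log2 fold change (x axis, a scale of its own in each panel) of the 67 tested genes of the 6 pathway lists (y axis) in the 3 comparisons, with filled points at FDR under 0.05. The 11 filled points right of 0 and 22 left of 0 in BMP/FGF against BMP show the split given in the text, and the fitted values of Nog, Dlx5 and Gdf15, each at or below 3 counts per library in a condition, depend on the prior count.

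As a description, the tested gene whose log2 CPM ran closest to each member over the 12 libraries was taken, with Pearson's r. The closest to Atoh8 was Tom1l2 (r = 0.998), with 1687 genes at r above 0.95, and that to Bmpr1b was Slc35a5 (r = 0.998), with 1478. For Smad9 it was Itgb4 (0.990, 905 genes), for Smad5 Eif3b (0.994, 694), for Bmpr1a Pag1 (0.992, 630), for Smad1 Prmt2 (0.991, 620) and for Smad7 Fam53b (0.989, 143). Few genes came that close to Smad6 (Adipor2, 0.964, 8 genes), Bambi (Itga6, 0.973, 5 genes) and Bmpr2 (Vcpip1, 0.961, 4 genes). The points share their 3 conditions and libraries.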

How the data were processed

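RNA-seq was read from 12 libraries, 4 of each condition. The authors used Trim Galore 0.5.0 for trimming and kallisto 0.44.0 with mm10 transcripts, and deposited estimated counts per gene (tximport), rounded to integers. Log2 values were also deposited, from the regularized logarithm of DESeq2 (version 1.27.32 in the submitters' processing notes), which served for 1 alternative. Groups followed the labels of the columns.

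Genes were kept by filterByExpr (13312 kept, 4053 not), scaled by TMM and fitted with edgeR 4.0.16 (glmQLFit, glmQLFTest, two-sided) on all libraries with condition and line as terms, in R 4.3.3. Adjustment was by Benjamini-Hochberg over all tested genes, and a gene was called at FDR under 0.05. Line differences were tested with 1 mean per line and condition, in the same way. Log2 CPM for correlations used a prior count of 2. Alternatives were DESeq2 size factors, library size only, the Wald test of DESeq2 1.42.0, limma-trend (limma 3.58.1) on the deposited values, no filter, no line term, replicate number as a block, fits on the 8 libraries of a comparison or on 1 line, and fits that left out 1 library in turn. The steps were also run on simulated data. The changes set there were larger than the smallest changes called here, so that run cannot vouch for calls of small changes.

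Totals of 18069052 to 19451818 counts mean that 1 count equals 0.0516 to 0.0559 CPM, and counting error is large for Smad6, Smad7, Smad9 and Atoh8 in EGF/FGF. The estimates split reads between similar transcripts. Gene positions and lengths came from GENCODE vM21 and promoters from RefSeq, both on GRCm38. Each library differed from its replicate by more than sampling noise, so none was a copy. The chi-square per degree of freedom was 12.2 in BL6 BMP, the least alike pair, and 2.12 to 4.68 in the other groups. The genes named are the 10 members, Id1 to Id4, Smad4, Bmp4, Nog and Acvr1, and from each pathway list the 2 largest called rises and 2 largest called falls of each comparison at a mean of at least 1 CPM, with the closest gene of each member. Gdf15 was added after its values were seen. Members and lists were chosen with earlier results of these data known.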

Additional observations from a re-analysis of the deposited data

Results flagged for a closer look

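In a group of 4 libraries, a library was marked when its gap to the nearest other exceeded Dixon's 95% limit, which chance does in about 1 of 20 groups; 3 of the 30 groups of the 10 genes were marked. Smad1 in BL6 BMP replicate 2 was at 102 CPM (others 87.7 to 90.1), and Atoh8 in the same library was at 37.5 CPM (others 24.4 to 25.5). Bambi in ANS4 BMP/FGF replicate 2 was at 2.59 CPM (others 3.55 to 3.63). Without it the log2 change of Bambi in BMP/FGF against BMP was −0.30 (edgeR FDR = 0.141). Without BL6 BMP replicate 2, Smad1 and Atoh8 in BMP against EGF/FGF were at 0.51 and 4.73 (edgeR FDR = 6.16e-07 and 7.99e-15).

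A test of the difference between the lines, BL6 minus ANS4, marked 5 changes of the receptors. In BMP/FGF against EGF/FGF these were Bmpr1b, 0.42 (log2 1.27 in ANS4, 1.69 in BL6, edgeR FDR = 0.0286), and Bmpr2, 0.46 (−0.00 and 0.46, edgeR FDR = 0.0205). Both calls were lost without any 1 of 6 libraries. In BMP/FGF against BMP they were Bmpr1a, 0.41 (edgeR FDR = 0.00525), Bmpr1b, 0.38 (edgeR FDR = 0.0183), and Bmpr2, 0.49 (edgeR FDR = 0.00637). The Bmpr1b call of this comparison was lost without ANS4 BMP replicate 1, either ANS4 BMP/FGF library or BL6 BMP/FGF replicate 1.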

How the results depend on the processing

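Of 690 values of the 10 genes over the 23 alternatives and 3 comparisons, 627 kept their side of the threshold. The others were 58 that lost FDR under 0.05, 4 that gained it and 1 called value that reversed. A change of direction that stayed at FDR of 0.05 or above was counted as kept. In BMP/FGF against BMP such values reached 0.05 for Bmpr1a, −0.15 for Bmpr1b and 0.05 for Smad1. In BMP against EGF/FGF all 23 alternatives gave 8 genes higher and 2 lower. Calls lost most often were Smad5 in BMP/FGF against BMP (17 of 23), Smad6 in BMP/FGF against EGF/FGF (16), and Bmpr2 (10) and Bambi (8) in BMP/FGF against BMP. The reversed value was Bmpr2 in BMP/FGF against EGF/FGF in ANS4 alone (−0.0053, edgeR FDR = 0.945). Hes1, with a log2 change of 0.13 between the quiescent conditions, was at −0.32 in ANS4 alone (edgeR FDR = 0.0129) and at 0.64 in BL6 alone (edgeR FDR = 0.00171). The cause was not tested.

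The 7 members lower in BMP/FGF against BMP were 4 in BL6 alone and 4 to 8 with a library left out. In BL6 alone 1 member was higher (Bmpr1b, 0.23), and in ANS4 alone 5 were higher in BMP/FGF against EGF/FGF. Members with a line difference were 0 to 3 in BMP against EGF/FGF and 2 to 5 in BMP/FGF against BMP with a library left out. In BMP/FGF against EGF/FGF they were 1 without the filter, 3 with limma-trend (Smad5 added, −0.39, FDR = 0.0241) and 0 to 2 with a library left out (0 without either ANS4 BMP/FGF or either BL6 BMP/FGF library, ANS4 EGF/FGF replicate 1 or BL6 EGF/FGF replicate 1, and 1 without ANS4 EGF/FGF replicate 2 or BL6 EGF/FGF replicate 2). The line difference in level in EGF/FGF, 1 member, was 2 with limma-trend and 0 to 2 with a library left out: 0 without any of the 4 EGF/FGF libraries, and 2 without BL6 BMP replicate 1 or BL6 BMP replicate 2.

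Replicate numbers did not pair the libraries: differences between replicates 1 and 2 correlated between conditions at −0.0711 to 0.0529. The replicate block left 5 members lower in BMP/FGF against BMP and 7 higher in BMP/FGF against EGF/FGF. A block with the ANS4 BMP/FGF numbers crossed, added after seeing the data, left 4 lower. Depth limits Smad6, Smad7, Smad9 and Atoh8, which had 31 counts or fewer in EGF/FGF libraries.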
